A study of Mus musculus with 4 samples.

Results

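The genes described here set the phosphorylation of eIF2 alpha, the regulated subunit of the translation initiation factor eIF2. They are the 4 eIF2 alpha kinase genes Eif2ak1, Eif2ak2, Eif2ak3 and Eif2ak4, the 2 phosphatase subunit genes Ppp1r15a and Ppp1r15b, and the kinase inhibitor genes Impact and Dnajc3. These 8 of 21900 protein-coding genes were chosen by function and not by measured values, though with earlier results of these data known. ATF4 pull-down peaks were assigned to a gene when they touched its model or the 10 kb on either side of it. This gave 16 of the 41639 peaks of a series-wide list, 24 of the 78746 peaks of replicate 1 and 25 of the 88812 peaks of replicate 2.

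Chromatin came from the heart ventricle of mice aged 4 weeks, with 2 ATF4 pull-down samples and 2 input samples, whose values are not analysed here. DNA bound to ATF4 was recovered on streptavidin beads, and the antibody field reads AAV for the pull-downs and none for the inputs. The labels used here name no strain, genotype, sex, vector promoter or number of pooled animals, so whether the ATF4 recovered was the heart's own or delivered by a vector cannot be told apart. Nothing in the labels says that the pull-down samples came from separate animals, so an SD over them measures only the spread between these samples, which may be technical.

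When eIF2 alpha is phosphorylated, general translation falls while translation of Atf4 mRNA rises, and ATF4 then activates genes of amino acid supply and protein quality control. Each kinase senses another stress: Eif2ak1 (HRI) haem shortage and mitochondrial stress, Eif2ak2 (PKR) double-stranded RNA, Eif2ak3 (PERK) unfolded proteins in the endoplasmic reticulum, and Eif2ak4 (GCN2) uncharged tRNA. Ppp1r15a (GADD34) is the stress-induced subunit and Ppp1r15b (CReP) the constitutive subunit that bring protein phosphatase 1 to eIF2 alpha and reverse the mark. Impact restrains GCN2 by competing for its activator GCN1, and Dnajc3 (p58IPK) is a co-chaperone of the endoplasmic reticulum that was first described as an inhibitor of PKR and also restrains PERK.

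The value of a peak is its fold over a background level that is constant within each replicate, not a ratio to input. The authors' series-wide list gives this fold directly. For replicate peaks it was read from series-wide peaks of identical position. The lists carry no read counts, and the depth behind a value was not worked out here. The lowest fold was 7.50 in the series-wide list, 5.50 in replicate 1 and 5.32 in replicate 2. Both replicate lists stop short of the end of several chromosomes. On chromosome 14 their last peak ends at 106948896 and 106948893, while 150 series-wide peaks lie further on, and Dnajc3 is in that stretch. Series-wide peaks lay within 1 kb of an end of 8 of 8 cardiomyocyte marker genes. Tnnt2, Actc1 and Myh6 had the highest folds, at 62.0, 61.5 and 59.5, and Ryr2 had the lowest, at 9.75. Of 21 markers of other cell types 7 had a series-wide gene-end peak, a share close to the 34.8% of all protein-coding genes. By cell type these were 3 of 4 for smooth muscle cells and pericytes, 2 of 4 for fibroblasts and 1 of 4 for immune cells. For endothelial cells it was 1 of 5 and for neurons 0 of 4. The replicate lists held 4 of 4 for smooth muscle cells and pericytes in each, and 3 and 4 of 4 for fibroblasts. For endothelial cells they held 3 of 5 in each, and for immune cells and neurons 1 of 4 in each. Of all protein-coding genes, 48.2% and 50.2% had such a peak in replicates 1 and 2.

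In the series-wide list, peaks lay at an end of the genes for both phosphatase subunits, of 3 of the 4 kinase genes and of 1 of the 2 inhibitor genes. The strongest lay at Ppp1r15b and Ppp1r15a. Eif2ak3 and Dnajc3 had peaks of intermediate fold, those at the starts of Eif2ak1 and Eif2ak4 were close to the lowest fold that this list holds, and Eif2ak2 had none in the series-wide list. A series-wide peak lay within 1 kb of an end of the gene model at 6 of 8 genes, against 34.8% of all protein-coding genes. Replicate 1 had such a peak at 6 of 8 genes against 48.2% of all genes, and replicate 2 at 7 of 8 genes against 50.2%. Among genes that the replicate lists reach, which leaves out Dnajc3, these counts were 6 of 7 against 49.2% and 7 of 7 against 51.3%. Within 1 kb of a gene start, where the start is given, a series-wide peak lay at 5 of 6 genes against 35.4% of all genes. At starts the count was 4 of 6 genes in each replicate, against 48.4% in replicate 1 and 50.2% in replicate 2. Without genes beyond the reach of the replicate lists it was 4 of 5 in each, against 49.4% and 51.3%. Inside the model or within 10 kb of it, 7 of 8 genes had a series-wide peak, where 61% of all genes did. This wider count was 6 of 8 in replicate 1 and 7 of 8 in replicate 2, where 72.3% and 74% of all genes had a peak. Over the 6 genes with a series-wide gene-end peak, the median of the strongest fold was 16.3, and over all 7631 such genes it was 13.3. The counts and medians describe genes chosen with earlier results known and were not tested.

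**Figure D1:**
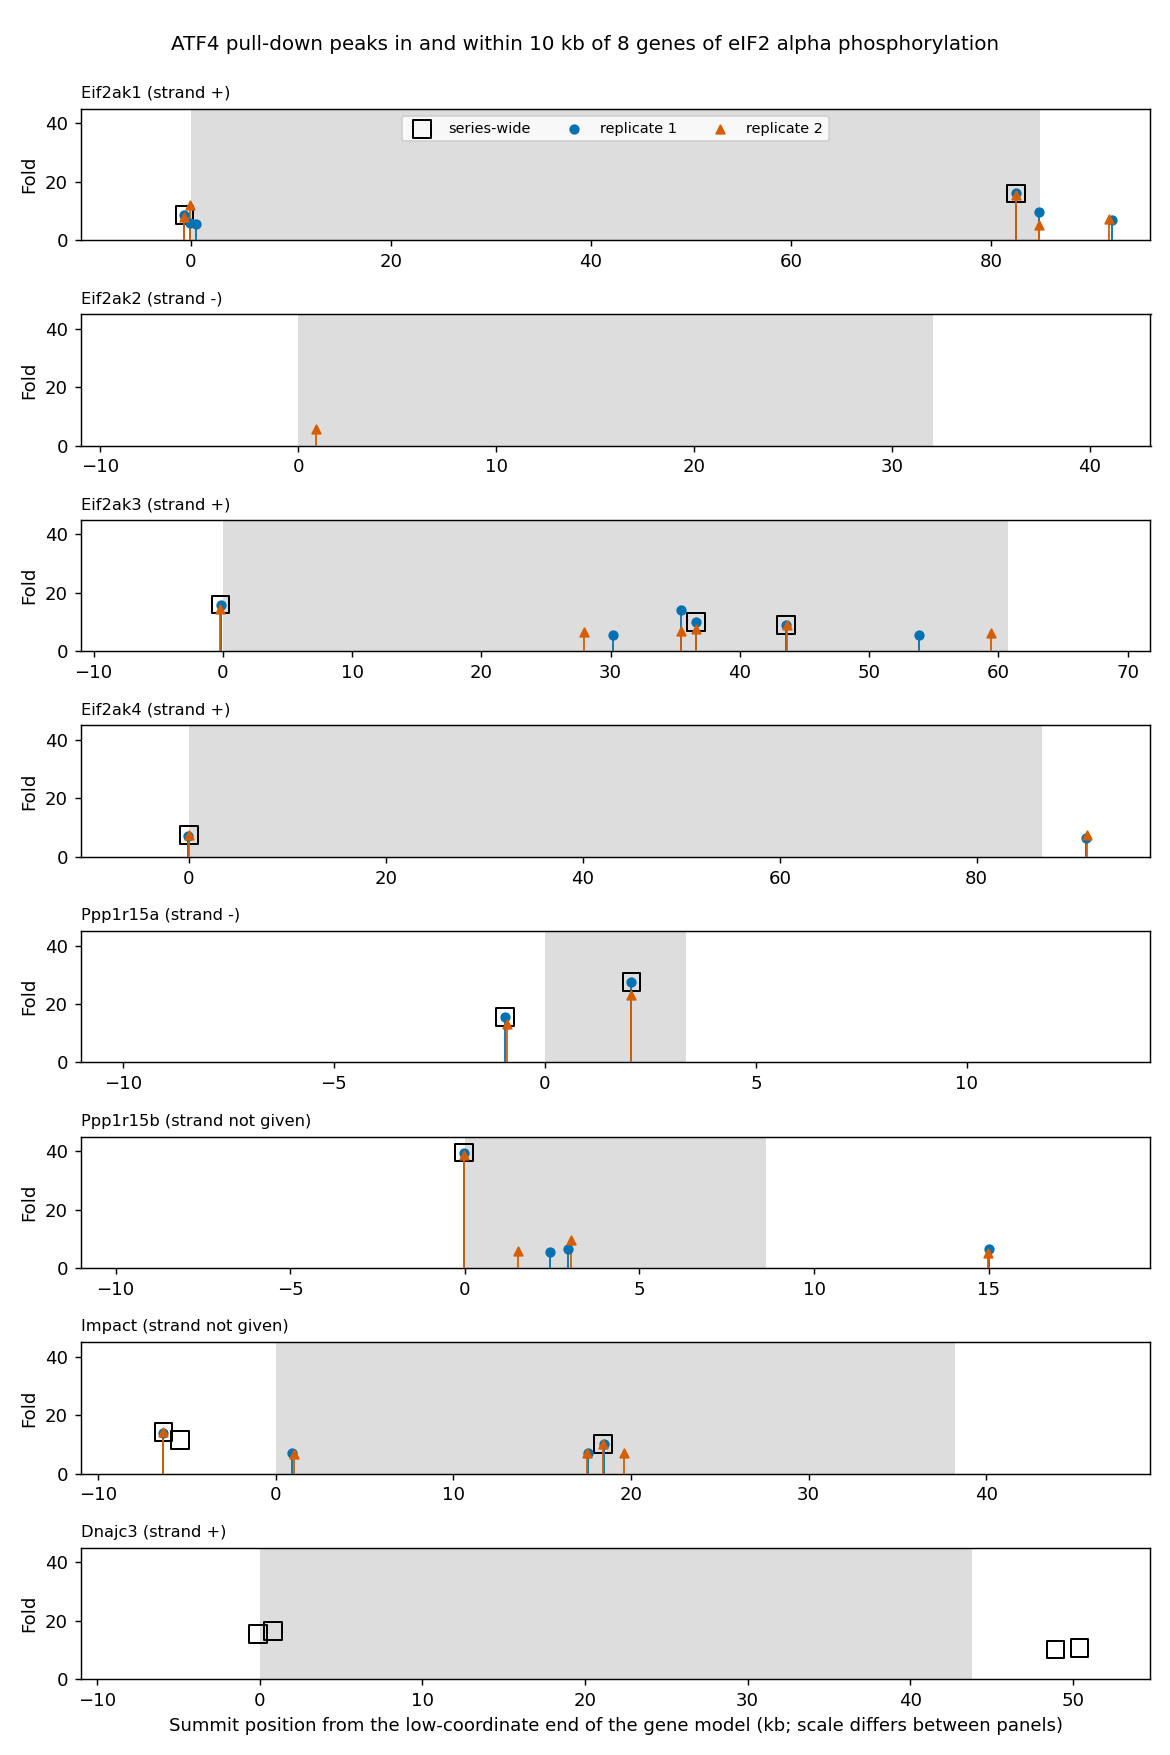
Peaks of the 3 lists along each gene, with the summit's distance from the low-coordinate end of the gene model on the x axis (kb) and the fold on the y axis; grey marks the gene model, open squares the series-wide list, circles replicate 1 and triangles replicate 2. The highest points are the 39.5 and 38.6 fold of Ppp1r15b at the edge of its model, and Eif2ak2 has a single triangle at 5.76.

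Ppp1r15b (chromosome 1, 133131166 to 133139800, 8.64 kb) carried the strongest peak of the set. Its peak had 39.5 fold in replicate 1 and 38.6 in replicate 2, a mean of 39.0 ± 0.663 (SD, n = 2), with summits 10 bp apart. The deposited −log10 values of this peak were 113 and 120 in replicates 1 and 2. Both samples therefore gave close values. In the series-wide list the peak spanned chr1:133130803-133131900, with its summit 20 bp outside the low-coordinate end of the model. Its fold ranked 203 of the 7631 genes with a series-wide gene-end peak, so that 97.3% of them had a lower one. Further peaks of low fold lay inside the gene in both replicates. The pair 2955 bp into the model had 6.50 and 9.75 fold, and neither it nor any other peak but that at the gene end entered the series-wide list.

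Ppp1r15a (chromosome 7, 45522917 to 45526268, minus strand) is a short gene of 3.35 kb. Its main peak had 27.5 fold in replicate 1 and 23.0 in replicate 2, or 25.3 ± 3.15 (SD, n = 2), and 91.5% of genes with a series-wide gene-end peak had a lower fold. The series-wide peak was 1947 bp wide, and 0.574% of the peaks of that list were wider. It ran from chr7:45524820-45526766 and thus covered the gene start, the upstream promoter and much of the gene. The summit was not at the start: it lay 1301 bp into the gene in replicate 1 and 1321 bp into it in replicate 2. The start of Plekha4, which is read in the opposite direction, lies 62 bp beyond the start of Ppp1r15a and within the same peak, so the peak cannot be given to one gene of the pair. A further peak (chr7:45521561-45522251) had 15.5 and 13.3 fold, or 14.4 ± 1.56 (SD, n = 2). It lay beyond the 3′ end of Ppp1r15a and inside Tulp2.

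The promoter of Ppp1r15a is printed because it holds a match to the cAMP response element, a site that ATF and CREB factors are known to bind. The sequence is that of RefSeq on GRCm38.p6, the assembly of mm10, and covers the 250 bases before the gene start (chr7:45526269-45526518, minus strand, 5′ to 3′). Capitals mark TGACGTCA, which begins 12 bases before the start.

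Ppp1r15a: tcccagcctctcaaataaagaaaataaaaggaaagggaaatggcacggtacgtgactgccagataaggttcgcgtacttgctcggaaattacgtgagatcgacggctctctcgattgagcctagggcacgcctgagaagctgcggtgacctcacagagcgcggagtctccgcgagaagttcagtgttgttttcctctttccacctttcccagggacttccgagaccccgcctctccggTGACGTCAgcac

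The match lies inside the peak of both replicates and 1309 bp from the series-wide summit. It was searched on both strands in 300-base promoter windows (250 bases before to 50 after each start). TGACGTCA was present in 2.23% of 21263 windows of protein-coding genes, in 4.17% of those that a series-wide peak touched and in 1.38% of the others. Of the 7 windows given for 6 of the 8 genes, that of Ppp1r15a was the only one with it. None of the 7 held TGATGNAA, the C/EBP-ATF composite element through which ATF4 is known to act. It was found in 3.60% of all windows, in 2.33% of those that a series-wide peak touched and in 4.17% of the others. None of the 7 held TGACGTGG, present in 0.705% of all windows, in 0.858% of those with a peak and in 0.638% of the others. The search does not reach peaks outside these windows.

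**Figure D2:**
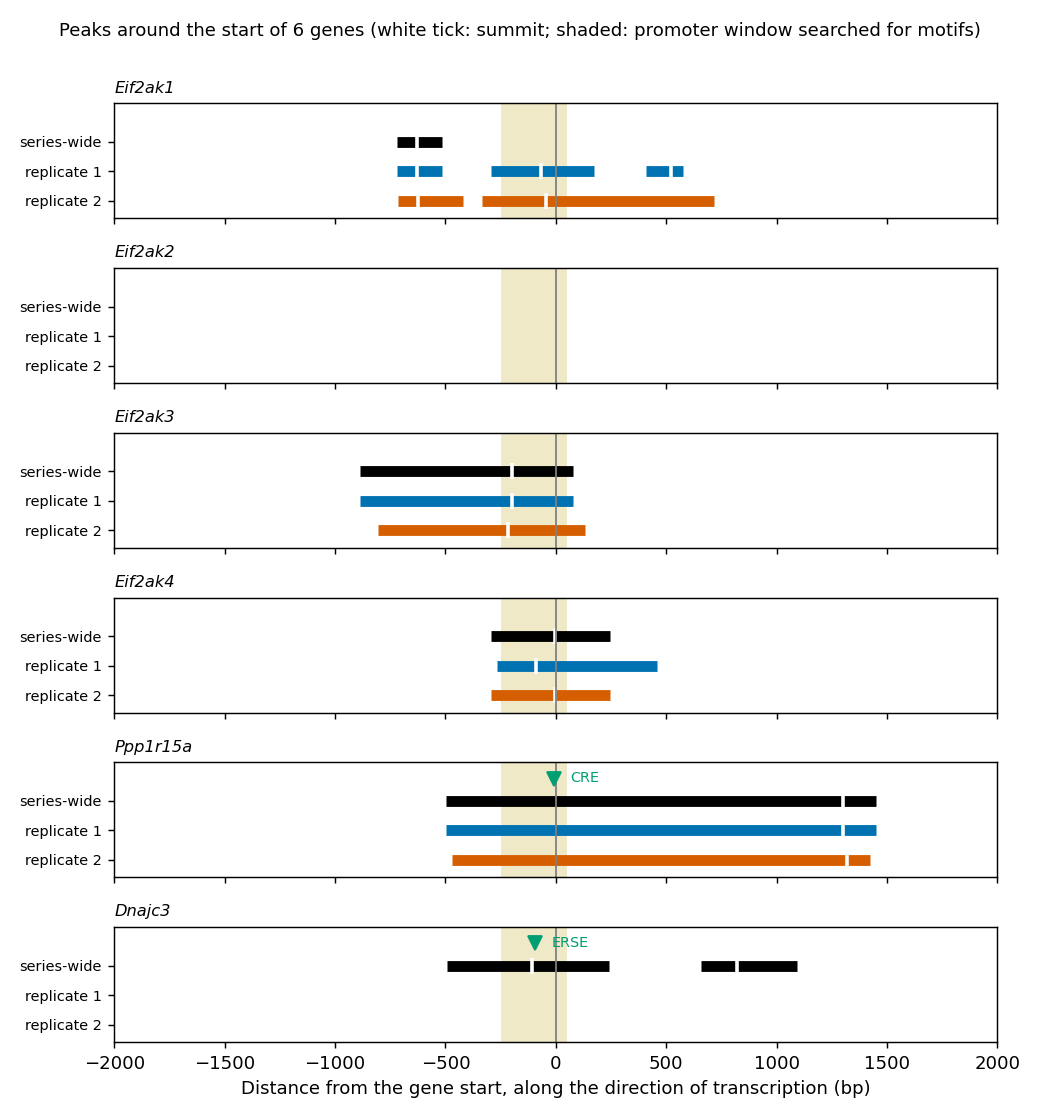
Extent of peaks around the start of the 6 genes whose start is given, with distance along the direction of transcription on the x axis (bp); black bars are series-wide peaks, blue replicate 1, orange replicate 2, white ticks summits, shading the window searched for motifs and triangles motif matches. The Ppp1r15a peak has its summit 1301 bp past the start, and Eif2ak2 has no bar.

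Among the kinase genes, Eif2ak3 (chromosome 6, 70844484 to 70905241) had the clearest promoter peak. Its fold was 16.0 in replicate 1 and 14.6 in replicate 2, or 15.3 ± 0.971 (SD, n = 2), and 66.8% of genes with a series-wide gene-end peak had a lower one. The peak (chr6:70843628-70844594) covered the whole 300-base promoter window in all 3 lists, with the series-wide summit 197 bp before the gene start. Deeper in the gene, 3 further regions had a peak in both replicates. The region 36589 bp after the gene start had 10 and 7.54 fold, and that 43536 bp after it had 9.0 and 8.87, and both are in the series-wide list. The remaining region, 35430 bp after the start, was the most uneven, with 14 fold in replicate 1 and 7.09 in replicate 2 (10.5 ± 4.88, SD, n = 2), and is not in the series-wide list. The gene table gives no exons, so exons and introns were not told apart.

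The promoters of Eif2ak3 and Eif2ak2 are shown as the kinase promoter with the highest fold and the one with no peak in any list. Both are the 250 bases before the gene start from RefSeq on GRCm38.p6, 5′ to 3′ (chr6:70844265-70844514, plus strand, and chr17:78882573-78882822, minus strand). Capitals mark CCAAT on either strand, a promoter element known as the site of the factor NF-Y, chosen for the search after the sequences were seen.

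Eif2ak3: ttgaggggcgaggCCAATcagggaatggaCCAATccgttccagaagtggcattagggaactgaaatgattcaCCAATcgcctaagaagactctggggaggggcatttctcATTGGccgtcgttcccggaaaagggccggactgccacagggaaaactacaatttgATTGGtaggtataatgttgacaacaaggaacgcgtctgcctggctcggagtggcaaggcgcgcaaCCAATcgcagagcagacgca
Eif2ak2: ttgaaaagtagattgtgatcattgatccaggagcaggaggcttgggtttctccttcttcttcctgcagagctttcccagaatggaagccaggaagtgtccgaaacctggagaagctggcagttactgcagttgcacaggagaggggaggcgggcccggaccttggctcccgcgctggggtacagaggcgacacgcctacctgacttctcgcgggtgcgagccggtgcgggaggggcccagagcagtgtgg

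The Eif2ak3 stretch holds 6 CCAAT boxes on both strands together, and the Eif2ak2 stretch holds 0. The number of boxes did not follow the peaks over the set. The window of Ppp1r15a and the first-listed window of Eif2ak4 also held 0, though peaks covered both fully in all 3 lists. The other Eif2ak4 window, which peaks covered only in part, held 0 too. The window of Eif2ak1 held 1 and that of Dnajc3 2. At least 6 boxes were found in 0.0941% of all 300-base windows, in 0.260% of those that a series-wide peak touched and in 0.0204% of the others. At least 1 was found in 38.2% of all windows, in 41.3% of those with a peak and in 36.8% of the others. The CpG content of the 2 windows was the same, at 17 CpG each, against a median of 22 over windows that a series-wide peak touched and of 7 over the others.

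Eif2ak2 (chromosome 17, 78850504 to 78882572, minus strand, 32.1 kb) was the member with least signal. The series-wide list had no peak inside it or within 10 kb, and the nearest lay 40.7 kb from the model. Replicate 1 had none either, with the nearest 14.8 kb away. Replicate 2 had 1 peak of 5.76 fold (chr17:78851340-78851466), at the 3′ end of the gene and 31176 bp from its start, within the overlapping pseudogene Gm6548. Among the 7456 protein-coding genes of 0.5 to 2 times its length, 31.7% had no series-wide peak in the same window, 19.5% none in replicate 1 and 17.5% none in replicate 2. Absence from a list means that no peak passed the authors' threshold, and the depth behind that threshold was not worked out here.

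At Eif2ak1 (chromosome 5, 143817792 to 143902717) the lists differed around the start of the gene. The series-wide peak there (chr5:143817074-143817277) was narrow, at 204 bp, and had its summit 630 bp before the start. It had 8.50 fold in replicate 1 and 7.98 in replicate 2, or 8.24 ± 0.369 (SD, n = 2), and 4.70% of genes with a series-wide gene-end peak had a lower fold. By the strongest gene-end peak of each replicate list, which is another peak in each, Eif2ak1 stood higher, with 42.0% of genes lower in replicate 1 and 62.1% in replicate 2. A peak over the start itself was called in each replicate but is not in the series-wide list. It had 6.0 fold in replicate 1 and 12 in replicate 2 (8.98 ± 4.22, SD, n = 2), a wider spread than at the start of Eif2ak3, Eif2ak4 or Ppp1r15a. The strongest peak of the gene was far from its start. It lay 2431 bp before the 3′ end (chr5:143900180-143900398), with 16.0 and 15.5 fold, or 15.8 ± 0.344 (SD, n = 2). A peak at the 3′ end had 9.50 and 5.32 fold in the replicates, and the model of Aimp2, on the other strand, has its own 3′ end there and overlaps that of Eif2ak1 by 14 bp.

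Eif2ak4 (chromosome 2, 118388583 to 118475234) had a weak peak at its start and none deeper in 86.7 kb of gene model. The start peak had 7.00 fold in replicate 1 and 7.54 in replicate 2, or 7.27 ± 0.378 (SD, n = 2). It spanned chr2:118388325-118388864 in the series-wide list, and 0.118% of genes with a series-wide gene-end peak had a lower fold. The replicate lists, which go down to lower folds, held 16.1% of genes below it in replicate 1 and 23.1% in replicate 2. The other pair of peaks within 10 kb, of 6.50 and 7.54 fold, lay at the start of Srp14, the next gene, which encodes a subunit of the signal recognition particle. In order of gene-start fold, Eif2ak3 stood above Eif2ak1 and Eif2ak4 in both replicates. Between the latter 2 the order depended on the sample and on which Eif2ak1 peak was taken: the peak over the start was below that of Eif2ak4 in replicate 1 and above it in replicate 2.

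**Figure D3:**
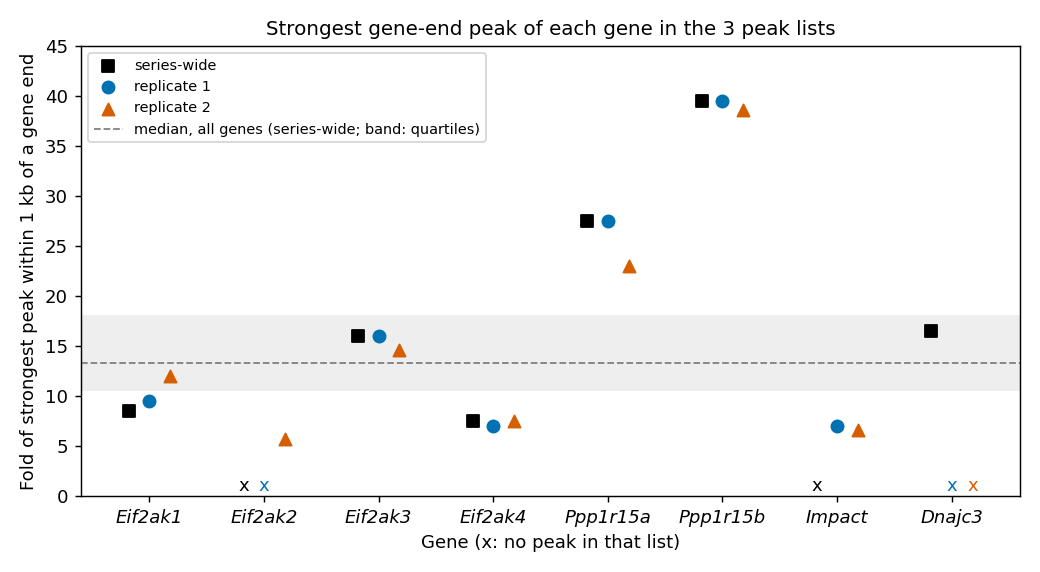
Fold of the strongest peak within 1 kb of a gene end (y axis) for each gene in the series-wide list (squares), replicate 1 (circles) and replicate 2 (triangles); a cross marks no peak in that list, and the dashed line and band are the median (13.3) and quartiles over all genes in the series-wide list. Both values of Ppp1r15a and Ppp1r15b lie above those of all other genes shown. At Eif2ak1 the replicates' strongest peaks lie at opposite ends of the gene. In the replicate lists the median over all genes with such a peak was lower, at 10 and 10.2 in replicates 1 and 2.

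Dnajc3 (chromosome 14, 118937932 to 118981702, plus strand) could be described from the series-wide list only. The nearest replicate peak lay 11989 kb away in each replicate list, so no spread between samples can be given. A series-wide peak of 15.5 fold (chr14:118937438-118938171) covered the whole promoter window, with its summit 110 bp before the start. A neighbouring peak of 16.5 fold (chr14:118938591-118939026) had its summit 820 bp into the gene, and 69.0% of genes with a series-wide gene-end peak had a lower fold than this one. Another pair, of 10.2 and 10.6 fold, lay beyond the 3′ end and inside Uggt2, a glucosyltransferase gene of glycoprotein folding that ends 304 bp from Dnajc3.

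The Dnajc3 promoter is printed for a match to the endoplasmic reticulum stress element, the site of ATF6 with NF-Y at chaperone genes, chosen for the search after the sequence was seen. It shows the 250 bases before the gene start from RefSeq on GRCm38.p6 (chr14:118937682-118937931, plus strand, 5′ to 3′). Capitals mark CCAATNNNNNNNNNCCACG, which begins 105 bases before the start.

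Dnajc3: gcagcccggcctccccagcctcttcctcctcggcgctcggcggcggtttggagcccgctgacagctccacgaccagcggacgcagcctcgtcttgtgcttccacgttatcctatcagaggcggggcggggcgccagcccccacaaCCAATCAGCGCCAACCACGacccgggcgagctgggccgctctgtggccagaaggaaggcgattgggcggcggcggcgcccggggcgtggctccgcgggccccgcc

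The centre of the match lay 14 bp from the summit of the peak. The element contains the CCAAT letters searched above. It was present in 30 of the 21263 windows (0.141%), in 0.153% of those that a series-wide peak touched and in 0.136% of the others, and in 1 of the 7 windows of the set. The Dnajc3 window held 39 CpG, more than 94.2% of windows. Series-wide peaks touched 51.2% of the windows with at least 15 CpG, the lowest number among the first-listed windows of the 6 genes, and 30.7% of all windows.

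**Figure D4:**
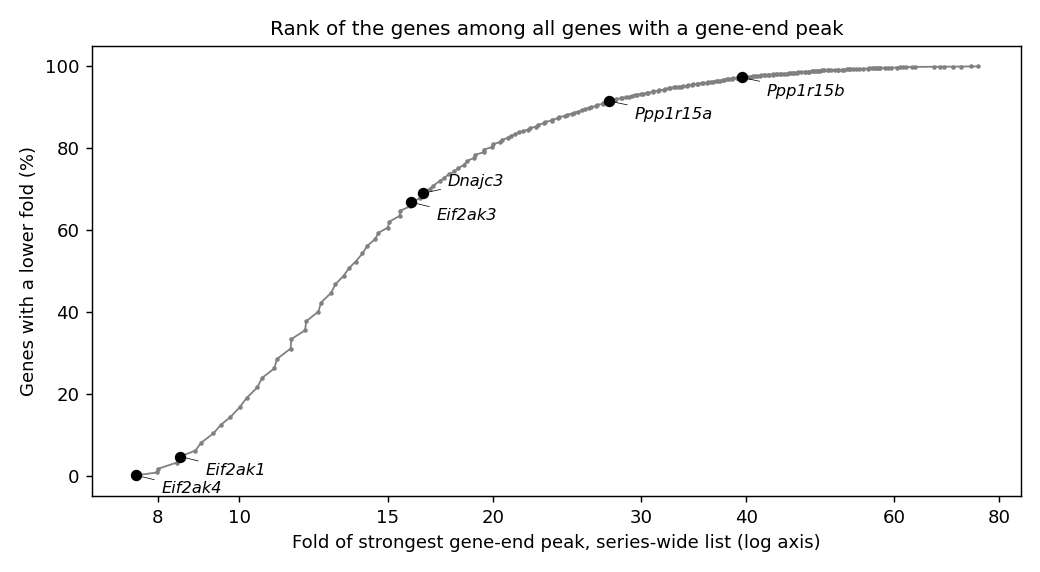
Share of genes with a lower fold (y axis, %) against the fold of the strongest series-wide gene-end peak (x axis, log scale) for all 7631 genes with such a peak (grey), with 6 of the 8 genes marked. Ppp1r15b lies at 97.3%, Ppp1r15a at 91.5%, Dnajc3 and Eif2ak3 at 69.0% and 66.8%, and Eif2ak1 and Eif2ak4 at 4.70% and 0.118%, where the replicate lists place them at 42.0% and 62.1%, and at 16.1% and 23.1%.

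Impact (chromosome 18, 12954690 to 12992950) had no series-wide peak at a gene end. Both replicates had a weak one reaching into the window at the low-coordinate end, with 7.00 and 6.65 fold, or 6.82 ± 0.248 (SD, n = 2). The strongest peak near the gene was 6340 bp outside that end in the series-wide list, with 14 fold in replicate 1 and 14.2 in replicate 2 (14.1 ± 0.130, SD, n = 2). A broad region in the middle of the gene had 10 and 10.2 fold (10.1 ± 0.138, SD, n = 2). It was a single peak of 1629 bp in replicate 1, and replicate 2 had a pair of peaks, of 1024 and 551 bp, over the same stretch, the narrower with 7.09 fold. A smaller peak beside it had 7.00 and 7.09 fold in replicates 1 and 2. These values differed little between the samples.

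Across the set, 21 of the 24 peaks of replicate 1 met one of replicate 2, and 21 of the 25 of replicate 2 met one of replicate 1. These counts were not set beside the same share over all peaks of the lists, so they cannot be called high or low. Summits of paired peaks were a median of 30 bp apart (5 to 565 bp). Of the 12 series-wide peaks at the 7 genes other than Dnajc3, 11 overlapped a peak of both replicates. Such overlap was in part fixed in advance, and this count was not set beside the same share over all series-wide peaks. Of the 41639 series-wide peaks, 17420 matched a replicate 1 peak exactly and 21053 matched a replicate 2 peak. Of the 16 series-wide peaks, 8 were at gene ends, 4 inside a gene away from its ends and 4 outside within 10 kb.

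The strongest member, Ppp1r15b, was compared with all other genes that had a gene-end peak in both replicates. By the summed absolute log2 difference of the replicate folds, over 2 samples and 9887 genes, the nearest were Spa17 and Siae, which share 1 peak of 40.5 and 38.1 fold (difference 0.05), and Tcea1, with 39.5 and 36.8 fold (difference 0.07). With 2 samples this likeness is of peak strength alone.

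The rest of the pathway was described with lists of its other genes. For reading these counts, 34.8% of all protein-coding genes had a series-wide gene-end peak, with a median of the strongest fold of 13.3. All 16 genes downstream of phosphorylated eIF2 alpha had a series-wide gene-end peak, with a median of the strongest fold of 24.3. The highest were Chac1, which degrades glutathione, at 51.1 ± 2.30 fold (SD, n = 2), the pseudokinase gene Trib3 at 45.2 ± 6.83 (SD, n = 2) and the transcription factor gene Atf3 at 41.1 ± 4.16 (SD, n = 2). Ppp1r15b at 39.0 lies next to these values. Atf4 itself had 15.0 fold in replicate 1 and 21.7 in replicate 2.

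The list of the substrate and its exchange factor holds 9 genes of eIF2 and eIF2B subunits and also Eif2a and Eif2d, which encode separate initiation factors. A series-wide gene-end peak lay at 8 of these 11 genes, against 34.8% of all genes, and all 8 were among the 9 subunit genes. Their median fold was 13.1, close to the 13.3 over all genes with such a peak. Eif2s2 (eIF2 beta) was highest at 20.2 ± 0.275 (SD, n = 2), followed by Eif2b4 at 14.1 ± 1.20 (SD, n = 2). Eif2s1, which encodes eIF2 alpha, had 12.6 ± 0.917 (SD, n = 2). Eif2s3x had 9.0 fold in replicate 1 and 13.3 in replicate 2. Eif2s3y, the subunit gene on the Y chromosome, had none in any list. Eif2a and Eif2d had none in the series-wide list. In replicates 1 and 2 Eif2a had one at 9.0 and 7.09 fold, and Eif2d had one at 6.65 fold in replicate 2 only. Of the catalytic subunits that Ppp1r15a and Ppp1r15b recruit, Ppp1cb had 14.5 ± 0.757 fold (SD, n = 2) and Ppp1ca 10.9 ± 2.26 (SD, n = 2), and Ppp1cc had no gene-end peak in any list.

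Of 8 genes that act on the kinases, 5 had a series-wide gene-end peak, against 34.8% of all genes. Their median fold of 11.1 was below the 13.3 over all genes with such a peak. These 5 genes were led by the RNA editing gene Adar at 14.5 ± 1.42 fold (SD, n = 2), Dele1, which relays mitochondrial stress to HRI, at 14.1 ± 1.20 (SD, n = 2), and the chaperone gene Hspa5 at 10.3 ± 1.12 (SD, n = 2). Gcn1, the GCN2 activator, was in both replicates at 8.0 and 6.21 fold but not in the series-wide list. The mitochondrial protease gene Oma1 had no gene-end peak in any list, and Tarbp2 had none in the series-wide list and lies beyond the reach of the replicate lists.

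Among 7 genes of the other stress sensors of the endoplasmic reticulum, 4 had a series-wide gene-end peak, against 34.8% of all genes. Their median fold was 12.9, against 13.3 over all genes with such a peak. Atf6 stood highest at 38.1 ± 3.73 fold (SD, n = 2), followed by Xbp1 at 13.8 ± 1.15 (SD, n = 2) and Atf6b at 11.5 ± 0.650 (SD, n = 2). Ern1, Ern2 and Mbtps2 had none in the series-wide list. In replicates 1 and 2 Ern1 had one at 7.00 and 6.65 fold. Ern2 had none in any list, and Mbtps2 lies beyond the reach of the replicate lists. The J-domain co-chaperones related to Dnajc3 had a series-wide gene-end peak at 3 of 6 genes, against 34.8% of all genes. Dnajc10, Dnajb9 and Dnajb11 had series-wide folds of 10.6, 11.1 and 12.4, below the 16.5 series-wide fold of Dnajc3. Dnajc1, Sec63 and Dnajc25 had none in the series-wide list. Sec63 had one at 6.0 and 7.54 fold in replicates 1 and 2, and Dnajc1 had one at 6.0 fold in replicate 1 only. Dnajc25 had none in any list.

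**Figure D5:**
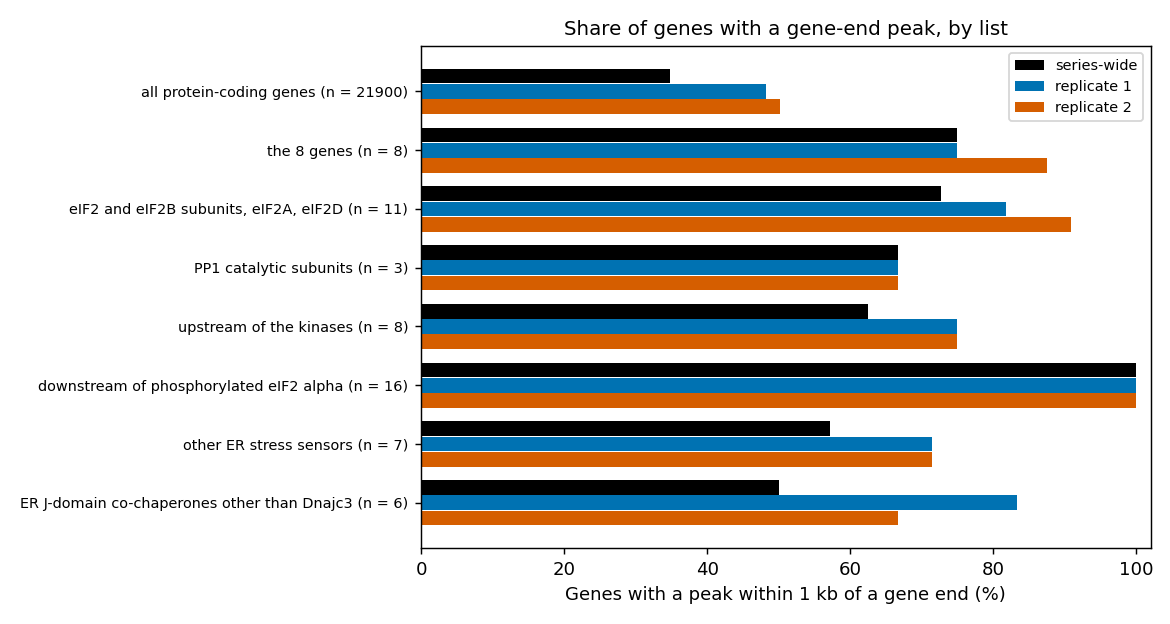
Share of genes with a peak within 1 kb of a gene end (x axis, %) for all protein-coding genes, the 8 genes and lists of other genes of the pathway (n in brackets), by peak list. The series-wide share is 34.8% for all genes and 100% for genes downstream of phosphorylated eIF2 alpha; Dnajc3 counts as without a peak in the replicate lists, which do not reach it.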

How the data were processed

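Deposited peak lists of 2 pull-down samples and 1 series-wide list were used, and 0 value columns were left out. Bowtie2, MACS2, deepTools and mm10 are named, with no role, order or version, per the submitters' processing notes. Each peak in the replicate lists has coordinates, a summit and a −log10 value that the authors deposited without saying whether it is a p-value or a q-value. The series-wide list holds the fold enrichment and summit offset deposited by the authors.

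Series-wide starts count from 0 and replicate starts from 1, as peaks with identical ends and summits showed. Such peaks (17420 and 21053, with 0 and 6 exceptions) tied each −log10 value to a fold. Folds were whole steps of 0.500 and 0.443. They were continued downwards for the 4 and 5 lowest values and interpolated for 2 and 9 high ones. Folds were not scaled between samples. The samples of one kind allow no group comparison, so no test was run. Gene spans came from RefSeq GRCm38.p6, and strands from its promoter table, where 6 of the 8 genes matched. Neighbouring genes and protein-coding windows were read from the same tables. The members, the gene lists and the rule for named genes (all members, the up to 3 highest and all absent genes of each list, and the 3 genes nearest to the strongest member) were chosen with earlier results of these data known. Gene assignment was tested on simulated peaks. Tables were handled with pandas 2.3.3 and NumPy 2.4.6 under Python 3.11.15, exact binomial bounds came from SciPy 1.17.1, and Matplotlib 3.10.9 drew the plots.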

Additional observations from a re-analysis of the deposited data

How the results depend on the processing

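When the series-wide list was limited to its 20% strongest peaks, 2 of the 8 genes, Ppp1r15a and Ppp1r15b, had a gene-end peak, against 5.55% of all genes. With the highest 50%, 4 genes did (Eif2ak3 and Dnajc3 in addition), against 16.1%. Windows of 500 bp gave 5 genes, without Eif2ak1, against 31.7% of all genes, and the replicate lists alone gave 6 to 7. The 16 series-wide peaks near the genes fell to 10 inside the models and to 8 among the highest 50%, and the replicate lists alone held 24 to 25. The median of the replicate means of the strongest gene-end fold, over 6 genes, was 13.0. It was 15.5 with 5 kb windows, where the peak near the 3′ end of Eif2ak1 entered, and 15.3 with 500 bp windows, where Impact dropped out. The replicates alone gave 12.8 in replicate 1 and 13.3 in replicate 2. Over all genes with a gene-end peak in the same list, the median was 10 in replicate 1 and 10.2 in replicate 2. With Eif2ak2, which had a gene-end peak in replicate 2 only, the replicate 2 median was 12 over 7 genes. Requiring 50% overlap of both peaks left 11 series-wide peaks found in both replicates. The share of all genes with a gene-end peak was 48.2 to 50.2% in the replicates alone. No paired analysis was possible because the input samples have no values here. The lists carry no read counts, and no limit was set for genes with no peak.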

Other observations

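A series-wide peak 5395 bp outside the low-coordinate end of Impact, of 11.5 fold and 165 bp wide, overlapped no peak of either replicate list, although the lists reach this stretch.

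Just past the 10 kb limit, 12.1 kb from Ppp1r15a, a series-wide peak had 48.0 fold, with 48.0 and 41.2 fold in replicates 1 and 2, above all peaks counted for the 8 genes. This peak lies inside the model of Tulp2.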
